A study of Mus musculus with 21 samples.

Results

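The genes described here encode 7 enzymes of NADPH supply and were measured in organoids of the mouse small intestine, which are grown from crypts embedded in Matrigel. They are G6pdx, Pgls and Pgd of the oxidative pentose phosphate pathway, Taldo1 and Tkt of its non-oxidative arm, malic enzyme Me1 and isocitrate dehydrogenase Idh1. The members were found by their gene names among the non-control probes of the array, and all 7 were on the array and among the 21372 genes tested. They were chosen by earlier results on these same arrays, among them log2 changes against vehicle, so those changes, and the differences between compounds that use the same arrays, are given as a description without a test.

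RNA was measured on 21 dual-channel Agilent arrays, 1 array per sample, each against Universal Mouse Reference RNA. All cultures came from mice carrying a doxycycline-inducible transgene for a myc-tagged human beta-catenin that lacks its N-terminal part, with the M2-rtTA activator expressed from the ROSA26 promoter, and all had first been grown with doxycycline. Samples carry letters, which fall into one set of A, B and C and another of D, E, F and G. With doxycycline kept in the medium, 7 samples (one of each letter) received vehicle. In the first set 3 samples were given compound 2 and 3 compound 9, and in the second set 4 were given compound 6, always at 2 µM for 24 h. From 4 further samples of the second set doxycycline was removed for 24 h, which ends the induction of the transgene. As every culture carried the transgene, its loss and the loss of the drug cannot be told apart. Per the series description the compounds are close analogues that inhibit CDK8 and CDK19, kinases attached to the Mediator complex of transcription. The sets were scanned separately and lie on different slides, so every change is taken against the vehicles of its own set. The labels do not say whether samples with different letters are separate cultures or animals, so the errors measure only the spread between these samples.

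NADPH is the electron donor that cells use to build fatty acids and sterols, to keep glutathione and thioredoxin reduced, and to clear reactive carbonyls. The oxidative pentose phosphate pathway makes it at the glucose-6-phosphate dehydrogenase and 6-phosphogluconate dehydrogenase steps, with a lactonase between them, while transaldolase and transketolase return the pentoses to glycolysis. Cytosolic malic enzyme and isocitrate dehydrogenase make NADPH from malate and isocitrate. Several of these genes are known targets of NRF2 (gene Nfe2l2), a transcription factor held in check by KEAP1 that binds antioxidant response elements in DNA.

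The promoter windows of G6pdx and Me1 are shown because they hold a match to the antioxidant response element in or up to the transcription start. All 7 members had RefSeq windows (GRCm38.p6, 250 bases before to 50 after the start), 10 windows in all, and both strands were searched for TGACNNNGC. The element was found in 3 of the 7 members, in 3 of their 10 windows, and in 12.4% of all 32851 windows. In the stretches below, read 5′ to 3′ on the minus strand, which carries both genes, capitals mark the match.
G6pdx, chrX:74428881-74428980, positions -100 to -1 from the start: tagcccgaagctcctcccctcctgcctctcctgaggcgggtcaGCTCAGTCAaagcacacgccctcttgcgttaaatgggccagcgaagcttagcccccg
Me1, chr9:86695905-86696004, positions -90 to 10: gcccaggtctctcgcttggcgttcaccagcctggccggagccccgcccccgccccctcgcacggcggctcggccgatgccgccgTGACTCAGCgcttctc
In G6pdx the match lies on the opposite strand from -57 to -49, where bases are counted from the start. In Me1 it lies from -6 to 3 and overlaps a match to the AP-1 letters TGANTCA, which 7.81% of all windows hold. The other match was in the second of the windows of Pgd, from 4 to 12. The E-box letters CACGTG (7.15% of windows) were found in no member, and the TCF letters CTTTGNA (18.1% of windows) only in Taldo1, from -159 to -153. Such matches describe these letters in these windows and show no binding.

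Each member was read by 1 probe, except Me1 with 3, and all 9 probes stood well above background in the sample channel on all 21 arrays. Coordinates of the probes are on mm9, as in the scanner files. The G6pdx probe lies at chrX:71654949-71655008, the Pgd probe at chr4:148524293-148524352 and the Pgls probe, whose ends span 537 bases of the genome, at chr8:74118067-74118603. The Taldo1 probe lies at chr7:148588764-148588823, the Tkt probe at chr14:31386641-31386700, the Idh1 probe at chr1:65206035-65206094 and the brightest Me1 probe, used for the gene, at chr9:86475077-86475136. No gene annotation of that build was used here, so exon and UTR positions are not given. G6pd2, a copy of G6pdx elsewhere in the genome, has its own probe, and whether either probe also reads the other transcript was not tested.

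Of the spots, 42.6% to 51.9% stood well above background in the sample channel, and the number of arrays limits the precision. All 10 epithelial markers were well above background on every array, while none of 4 adipocyte markers was on any, nor were Lum and Pdgfra (fibroblasts) or Cdh5 (endothelium). On all arrays 5 of 7 fibroblast, 5 of 6 leukocyte and 2 of 4 endothelial markers stood above it. Vehicle F stood apart from vehicles D, E and G in 7 proliferation markers, whose mean was -3.47 (log2 sample over reference) against a highest value of -1.51 in that set. Vehicles A to C read -3.79 to -3.72 for the same list, closer to vehicle F than to vehicles D, E and G. After withdrawal 6 of 7 markers of this list were called lower, where 13.4% of all genes were. With compound 6 the median change of the list was -0.83. There 2 of 7 markers were called lower and 1 higher, where 13.4% and 11.4% of all genes were. Markers of other classes moved with compound 6 as well: 3 of 5 goblet, 4 of 5 leukocyte and 3 of 5 fibroblast markers passed higher, where 11.4% of all genes did. The mean of the leukocyte list was -1.32 to -1.22 with compound 6 against -1.81 to -1.63 in vehicles D to G. The part of these shifts in the members' changes was not tested, and in bulk RNA more cells of a type and more RNA per cell cannot be told apart.

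Levels below are log2 ratios of sample over reference; they can be set against each other for 1 probe but not between genes. Between the vehicle sets, 5 of the 7 members lay higher in D to G than in A to C with no overlap, by 0.39 (Taldo1) to 0.79 (Pgls), while Me1 and Idh1 overlapped. The share of all genes that lay apart between the sets is not given, so this count shows nothing particular to the members. Cell markers differed between the vehicle sets as well. The mean of 5 enteroendocrine markers was 0.72 to 1.48 in vehicles A to C and 3.91 to 4.36 in vehicles D to G. Set and scan cannot be told apart.

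**Figure D1:**
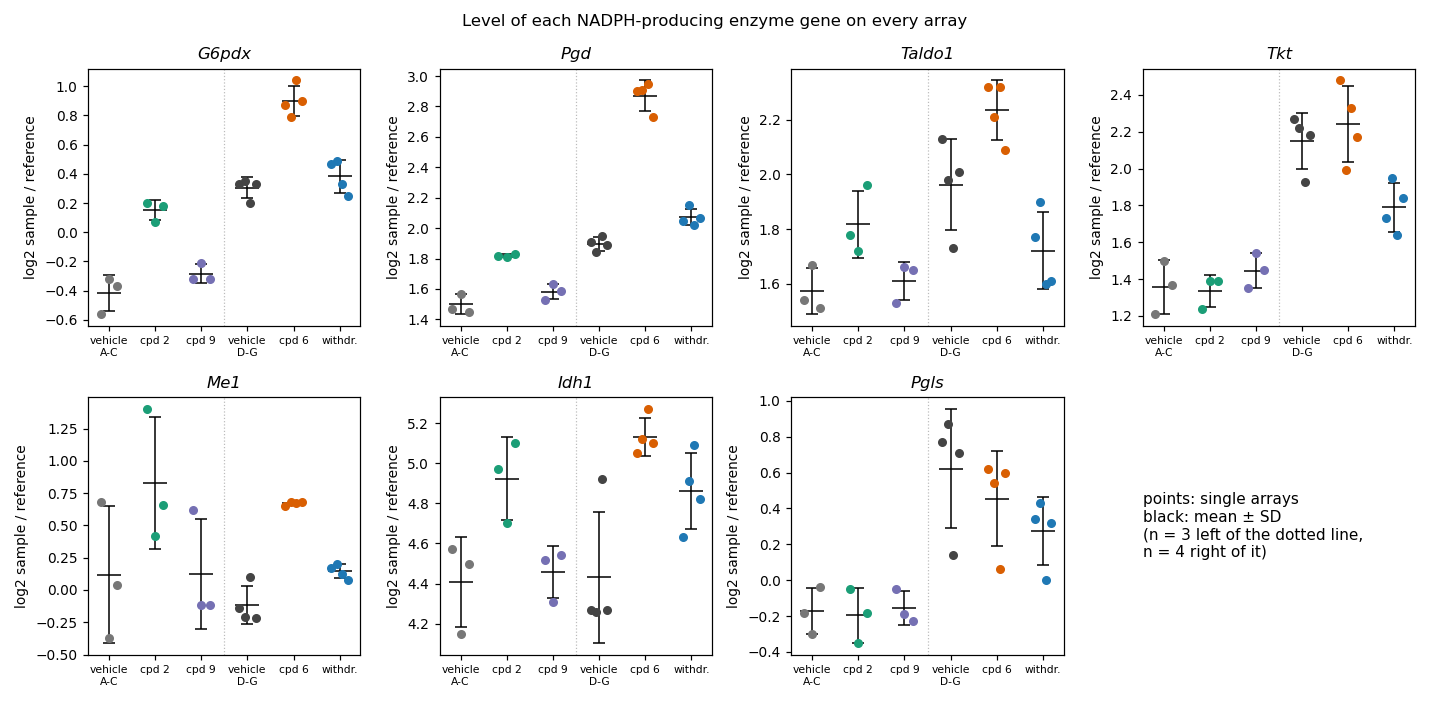
Log2 ratio of sample over reference (vertical axis of each panel) for the 7 genes on every array, with groups on the horizontal axis. Points are single arrays and black marks the mean ± SD (n = 3 for vehicle A to C and compounds 2 and 9, n = 4 for vehicle D to G, compound 6 and withdrawal). In the Pgd panel compound 6 lies at 2.73 to 2.95 and its vehicles at 1.84 to 1.95, and in the Pgls panel the arrays of letter F are the lowest of vehicle D to G, compound 6 and withdrawal.

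G6pdx encodes glucose-6-phosphate dehydrogenase, which opens the oxidative pathway and makes its first NADPH. With compound 2 it read 0.20, 0.07 and 0.18 (letters A, B and C), against -0.56, -0.32 and -0.37 with vehicle and -0.32, -0.21 and -0.32 with compound 9. With compound 6 it read 0.87, 0.79, 1.04 and 0.90 (letters D, E, F and G), against 0.33, 0.35, 0.20 and 0.33 with vehicle and 0.47, 0.49, 0.33 and 0.25 after withdrawal. All arrays of compound 2 and compound 6 thus lay above all of their vehicles, whereas compound 9 and withdrawal overlapped theirs. The change was 0.57 ± 0.08 (log2 change ± SE from the limma model, here and below) with compound 2, a 1.48-fold higher level, and 0.60 ± 0.07 with compound 6, 1.51-fold. It was 0.13 ± 0.08 with compound 9 and 0.08 ± 0.07 after withdrawal. The compound 2 change was 0.58 and 0.54 on the separate slides of letters A to C. That of compound 6 was 0.61, 0.49 and 0.71 on the 3 slides of letters D to G, where the arrays compared did not always share a letter.

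Pgls encodes the lactonase between the NADPH-making steps, and it was not set apart from vehicle by any compound. With compound 2 it read -0.05, -0.35 and -0.18, with compound 9 -0.05, -0.19 and -0.23, and with vehicle -0.18, -0.30 and -0.04. In letters D to G its vehicles read 0.77, 0.87, 0.14 and 0.71, compound 6 0.62, 0.54, 0.06 and 0.60 and withdrawal 0.34, 0.43, 0.00 and 0.32. Letter F was low in all 3 groups, and the groups overlapped in all 4 comparisons. The change was -0.02 ± 0.17 with compound 2, -0.17 ± 0.15 with compound 6, 0.02 ± 0.17 with compound 9 and -0.35 ± 0.15 after withdrawal. Between slides the compound 6 value ranged from -0.65 to 0.16. These values mix letters, as the -0.65 sets compound 6 F against vehicle G. After withdrawal all 4 letters were lower than their vehicle, by 0.14 to 0.44.

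Pgd encodes 6-phosphogluconate dehydrogenase, the other NADPH-making step of the pathway, and had the largest change of the 7 with compound 6. Compound 6 read 2.90, 2.91, 2.95 and 2.73, vehicle 1.91, 1.84, 1.95 and 1.89 and withdrawal 2.05, 2.15, 2.02 and 2.07. In letters A to C compound 2 read 1.82, 1.81 and 1.83, vehicle 1.47, 1.57 and 1.45 and compound 9 1.53, 1.63 and 1.59. Neither compound 2, compound 6 nor withdrawal overlapped its vehicles, and the lowest compound 6 array (2.73) stood well clear of the highest vehicle (1.95). The change was 0.97 ± 0.06 with compound 6 (1.96-fold), 0.32 ± 0.07 with compound 2 (1.25-fold), 0.18 ± 0.06 after withdrawal (1.13-fold) and 0.08 ± 0.07 with compound 9. The value after withdrawal depended on the scaling and was 0.30 to 0.35 with the deposited ratios or the sample channel alone. Within slides the compound 6 change was 0.97, 0.98 and 1.06, where the arrays compared did not always share a letter.

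In the non-oxidative arm the fitted changes with compounds 2 and 6 lay between -0.02 and 0.27. Taldo1, transaldolase, read 1.78, 1.72 and 1.96 with compound 2 against 1.54, 1.67 and 1.51 with vehicle, without overlap, a change of 0.25 ± 0.10. This value rested on the scaling: it was -0.03 with Agilent's deposited ratio and 0.00 with the sample channel alone. With compound 6 Taldo1 read 2.32, 2.21, 2.32 and 2.09 against 2.13, 1.98, 1.73 and 2.01, a change of 0.27 ± 0.09 with overlap, which was 0.17, and short of the threshold used below, without letter F. After withdrawal it read 1.77, 1.90, 1.60 and 1.61, lower than vehicle in all 4 letters. The fitted change was -0.24 ± 0.09, but -0.03 and -0.02 with the deposited ratios.

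Tkt, transketolase, read 1.24, 1.39 and 1.39 with compound 2, 1.35, 1.54 and 1.45 with compound 9 and 1.21, 1.5 and 1.37 with vehicle. These groups overlapped throughout, with changes of -0.02 ± 0.12 and 0.09 ± 0.12. In letters D to G vehicle read 2.27, 2.22, 1.93 and 2.18, compound 6 2.48, 1.99, 2.33 and 2.17 and withdrawal 1.73, 1.95, 1.64 and 1.84. Compound 6 gave 2 letters above and 2 below vehicle, with a change of 0.09 ± 0.10. After withdrawal all 4 letters were lower, by 0.27 to 0.54, with a fitted change of -0.36 ± 0.10, which was -0.12 to -0.21 under the other scalings. Only withdrawal E reached into the range of the vehicles, just above the low vehicle F.

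Me1, the cytosolic malic enzyme, varied more between letters than any other member in A to C. Compound 2 read 1.40, 0.42 and 0.66, vehicle 0.68, -0.37 and 0.04 and compound 9 0.62, -0.12 and -0.12. Letter A was the highest in all 3 groups, so compound 2 and vehicle overlapped, yet each letter was higher with compound 2 by 0.61 to 0.79. Compound 6 read 0.65, 0.68, 0.67 and 0.68 against -0.14, -0.21, 0.10 and -0.22 with vehicle and 0.17, 0.20, 0.12 and 0.08 after withdrawal. The compound 6 arrays lay close together (0.65 to 0.68) and above all vehicles. The change was 0.71 ± 0.24 with compound 2 (1.63-fold), 0.79 ± 0.21 with compound 6 (1.73-fold), 0.01 ± 0.24 with compound 9 and 0.26 ± 0.21 after withdrawal. Leaving out single arrays moved the compound 2 value between 0.42 and 0.99. The other Me1 probes gave 0.81 and 0.73 with compound 2 and 0.82 and 0.65 with compound 6.

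Idh1, the cytosolic and peroxisomal isocitrate dehydrogenase, was higher in each letter with compound 2, with compound 6 and after withdrawal. Compound 2 read 4.97, 4.70 and 5.10, vehicle 4.57, 4.15 and 4.50 and compound 9 4.52, 4.31 and 4.54. Compound 6 read 5.05, 5.12, 5.27 and 5.10, withdrawal 4.63, 4.91, 5.09 and 4.82 and vehicle 4.27, 4.26, 4.92 and 4.27. Vehicle F lay far above the other vehicles of its set, and withdrawal overlapped the vehicles only through it, while compounds 2 and 6 did not overlap theirs. The change was 0.52 ± 0.16 with compound 2 (1.43-fold), 0.70 ± 0.14 with compound 6 (1.63-fold), 0.05 ± 0.16 with compound 9 and 0.43 ± 0.14 after withdrawal (1.35-fold). Without letter F those of compound 6 and withdrawal were 0.82 and 0.52.

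**Figure D2:**
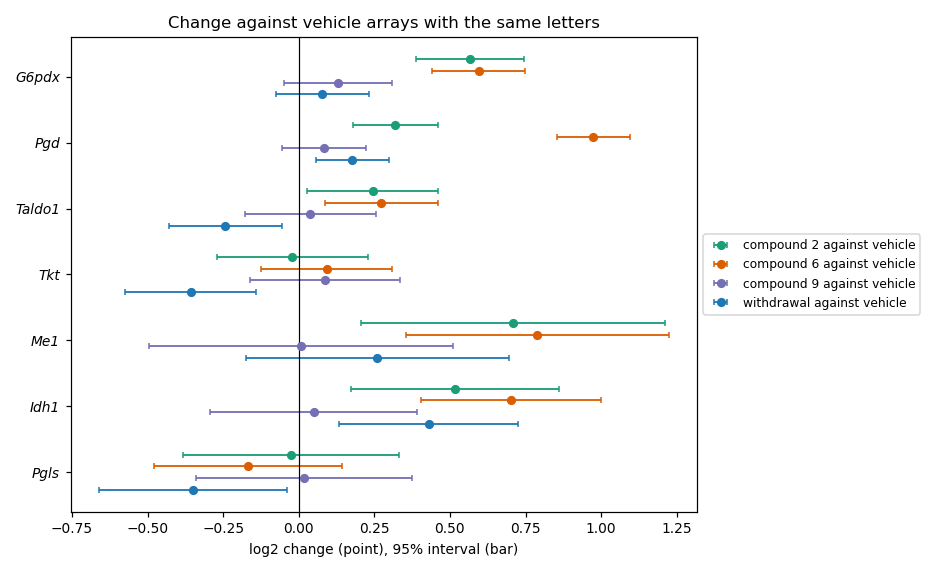
Log2 change of each gene (vertical axis) against the vehicles of its set, with its 95% interval from the limma model, for compounds 2, 6 and 9 and for withdrawal. Compounds 2 and 6 lie to the right for G6pdx, Pgd, Me1 and Idh1, compound 9 lies at 0.01 to 0.13 for all 7 genes, and withdrawal lies left of 0 for Taldo1, Tkt and Pgls.

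Read as a set, the members' median change was 0.60 with compound 6 (median of all genes -0.03), 0.32 with compound 2 (0.00), 0.08 after withdrawal (-0.01) and 0.05 with compound 9 (-0.01). With compound 6, 5 of 7 (G6pdx, Pgd, Taldo1, Me1 and Idh1) lay past the array-wide threshold, a Benjamini-Hochberg adjusted p of 0.05, all higher, where 24.8% of all genes passed (11.4% higher, 13.4% lower). With compound 2, G6pdx and Pgd did, both higher, where 5.3% of genes passed (3.32% higher, 1.98% lower). When letters, which pair the samples, were fitted as a block, Me1 and Idh1 passed too (4 of 7), where 17.3% of genes passed. With compound 6 the block left 5 of 7, where it passed 41.2% of genes. After withdrawal 3 of 7 passed (Pgd and Idh1 higher, Tkt lower), where 20.6% of genes passed (7.29% higher, 13.4% lower). Under the letter block 6 of 7 did, all but G6pdx, where 39.1% of genes passed. The count without the block was the least firm: it was 0 without vehicle D, E or G, 1 without withdrawal F or G and 5 without vehicle F. The number of all genes called moved too, from 2404 to 7382 of 21372 when single arrays were left out. With compound 9 limma passed 0 of 7 members and 0% of genes, and at an unadjusted p of 0.05 it passed 0 members and 256 of 21372 genes. The block passed 0 members as well and 1 gene (0.00468% of genes). Groups did not overlap for 4 members with compound 2, 4 with compound 6, 1 after withdrawal and 0 with compound 9, where 26%, 19.9%, 16.8% and 5.23% of all genes did not overlap. These counts describe genes chosen with such values in view, and the comparisons of a set share their vehicle arrays.

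The compounds were compared in 3 pairs at the same dose and time. Compounds 9 and 2 share slides and letters, and compound 6 was set against the others through the vehicles of its own set. The vehicle sets differed in proliferation and enteroendocrine markers, and the part of this in the differences between compounds was not tested. Compound 9 gave lower levels than compound 2 for 5 of 7 members. The difference was -0.44 ± 0.08 for G6pdx and -0.24 ± 0.07 for Pgd, both past the array-wide threshold (4.81% of genes passed, 1.47% higher and 3.34% lower), -0.70 ± 0.24 for Me1, -0.47 ± 0.16 for Idh1 and -0.21 ± 0.10 for Taldo1. The Taldo1 difference was 0.049 with Agilent's ratio. All 3 letters were lower for each of these, and only Me1 overlapped between the compounds, where 25.1% of genes did not overlap. The letter block added Me1 and Idh1 (4 of 7, where 15.9% of genes passed), while Pgd fell short of the threshold when any of the 6 arrays of the pair was left out. The 95% interval reached from -0.14 to 0.36 for Tkt and from -0.32 to 0.40 for Pgls.

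Compounds 6 and 2 differed past the threshold in Pgd, which was higher with compound 6 by 0.65 ± 0.09 (0.566% of genes passed, 0.346% higher and 0.22% lower, and 9.18% under the letter block, which also called Pgd alone). For G6pdx the difference was 0.03 with a 95% interval of -0.21 to 0.26, and it took either sign when single arrays were left out. For Idh1 the interval was -0.27 to 0.64 and for Me1 -0.58 to 0.75, both from the fit without the letter block. They thus hold the spread between letters, and differences of the size of the changes themselves lie within them. The intervals of Taldo1 (-0.26 to 0.31), Tkt (-0.22 to 0.44) and Pgls (-0.62 to 0.33) include 0 as well. Compound 6 lay above compound 9 for Pgd by 0.89 ± 0.09 and for G6pdx by 0.47 ± 0.11, both past the threshold (6.51% of genes passed, 3.86% higher and 2.65% lower). The G6pdx call was lost without compound 9 A or vehicle B. The differences of 0.78 ± 0.32 for Me1 and 0.65 ± 0.22 for Idh1 passed only under the letter block (4 of 7, where 21.7% of genes passed). Those of Taldo1, Tkt and Pgls had intervals of -0.05 to 0.52, -0.32 to 0.33 and -0.66 to 0.29.

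**Figure D3:**
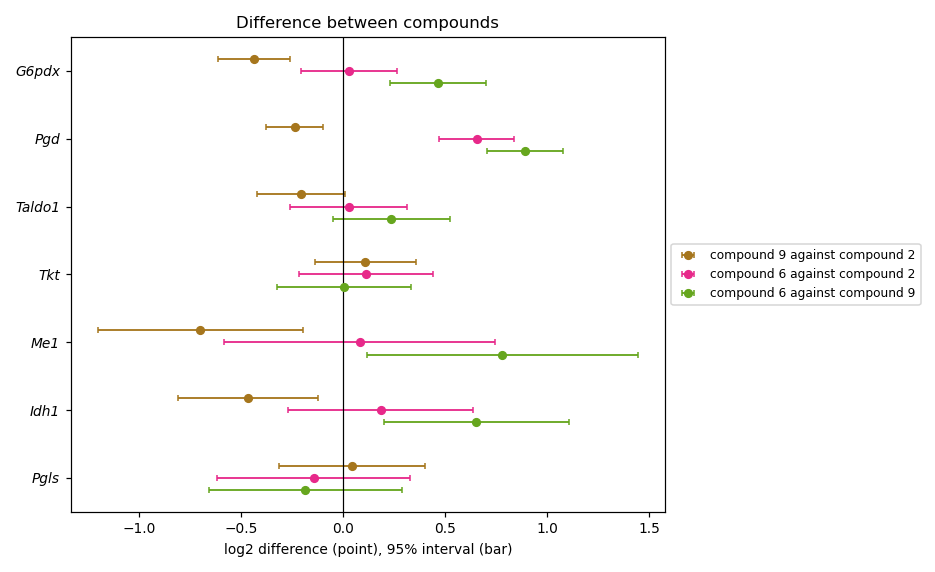
Log2 difference between compounds for each gene with its 95% interval, for compound 9 against 2, compound 6 against 2 and compound 6 against 9. Genes are on the vertical axis and the log2 difference on the horizontal axis; for Pgd all 3 intervals lie off 0, for G6pdx the interval of compound 6 against compound 2 (-0.21 to 0.26) spans it, and for Tkt and Pgls all 3 intervals span it.

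The other genes of the pathway were called in both directions. These genes and the related lists below were also chosen with earlier results of these data known. Their counts and adjusted p values thus describe these arrays and are no independent test. Of 26 other genes of NADPH supply and the pentose phosphate pathway that were tested, 3 rose and 3 fell with compound 6, with a median change of 0.06. That share lies near the 24.8% of all genes called. The enzymes that rose were Pgm2 (0.83 ± 0.14, limma adjusted p = 0.00034), Rpia, ribose-5-phosphate isomerase (0.55 ± 0.10, adjusted p = 0.001), and G6pd2 (0.43 ± 0.12, adjusted p = 0.0137). Those that fell were Nnt, the mitochondrial transhydrogenase (-0.97 ± 0.34, adjusted p = 0.0407, and -0.39 and -0.16 on its other probes), the folate enzyme Mthfd1 (-0.90 ± 0.23, adjusted p = 0.00845) and Prps2, which makes phosphoribosyl pyrophosphate (-0.74 ± 0.16, adjusted p = 0.0021). The Nnt call was lost in 9 of 18 alternatives, and Nnt read -0.57 (adjusted p = 0.16) without compound 6 F. It was lost without vehicle D, E or G too. The G6pd2 call was lost without compound 6 F or vehicle D. With compound 2, where 5.3% of all genes were called, 2 rose: the mitochondrial folate enzyme Aldh1l2 (0.86 ± 0.19, adjusted p = 0.0132) and malic enzyme Me3 (0.46 ± 0.13, adjusted p = 0.0398, and 0.29 on its other probe). Which genes of this list were called depended on the scaling, as Agilent's ratio gave 0 higher and 2 lower. Aldh1l2 (0.65 to 1.04) and Me3 (0.19 to 1.27) themselves stayed higher than vehicle in all alternatives. Leaving out compound 2 A or vehicle B left 0 calls, and leaving out compound 2 C or vehicle A left 1. Such removals of single arrays left 545 to 896 of all 21372 genes called. The Me3 call was lost in 11 of 15 alternatives and that of Aldh1l2 in 5 of 16.

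Withdrawal gave 4 higher and 4 lower in this list, where 20.6% of all genes were called. Mthfd1 fell by 1.74 ± 0.23 (adjusted p = 0.000161), Prps2 by 0.88 ± 0.16 (adjusted p = 0.00107) and Mthfd2, of the mitochondrial folate cycle, by 0.70 ± 0.20 (adjusted p = 0.0163). H6pd, the glucose-6-phosphate dehydrogenase of the endoplasmic reticulum, rose by 0.59 ± 0.13 (adjusted p = 0.0035), Glud1, glutamate dehydrogenase, by 0.50 ± 0.13 (adjusted p = 0.00888) and Shpk, sedoheptulokinase, by 0.45 ± 0.10 (adjusted p = 0.00558). Blocked by letter, 16, 11 and 12 of the 26 passed after withdrawal, with compound 2 and with compound 6, where the block called 39.1%, 17.3% and 41.2% of all genes. The Mthfd2 call was lost without withdrawal G or vehicle D or E. Without vehicle F, 14 passed after withdrawal, while leaving out single arrays moved the number of all genes called from 2404 to 7382 of 21372. With compound 9 limma passed 0, and 1 at an unadjusted p of 0.05.

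The list called NADPH-using here also holds enzymes that do not take NADPH directly, among them Lss, Elovl6, Sepx1 and Srxn1. Of its 39 genes tested, 14 were higher and 5 lower with compound 6, and 7 higher and 1 lower with compound 2. After withdrawal 5 were higher and 5 lower. Of all genes 24.8%, 5.3% and 20.6% were called in these comparisons. The carbonyl reductase Cbr3 read -2.34 ± 0.55 (mean ± SD, n = 3) with vehicle and 0.60 ± 0.47 (n = 3) with compound 2, and 0.55 ± 0.53 (n = 4) with vehicle and 3.91 ± 0.35 (n = 4) with compound 6. Its changes were 2.93 ± 0.34 (adjusted p = 4.77e-05), 3.36 ± 0.29 with compound 6 (adjusted p = 3.9e-07) and 1.13 ± 0.29 after withdrawal (adjusted p = 0.0109). The aldo-keto reductase Akr1b8 rose by 1.38 ± 0.34 with compound 2 (adjusted p = 0.0211, lost in 6 of 16 alternatives, among them the removal of any array of compound 2 and of vehicle A or C) and 3.01 ± 0.29 with compound 6 (adjusted p = 1.6e-06). Glutathione reductase, Gsr, rose by 1.31 ± 0.10 with compound 6 (adjusted p = 7.12e-08), and the carbonyl reductase Cbr1 by 0.71 ± 0.08 with compound 2 (adjusted p = 6.67e-05). Among those that fell were the methionine sulfoxide reductase Sepx1 (-0.31 ± 0.06 and -0.33 ± 0.05 with compounds 2 and 6; adjusted p = 0.00591 and 0.000261), which was -0.11 and -0.02 on its other probe. Mitochondrial thioredoxin reductase, Txnrd2, fell by 0.59 ± 0.13 with compound 6 (adjusted p = 0.0032) and biliverdin reductase, Blvra, by 0.35 ± 0.12 (adjusted p = 0.0363). The Blvra call was lost in 8 of 18 alternatives, among them the removal of compound 6 F or G or of vehicle D, E or G.

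After withdrawal the quinone reductase Nqo1 rose by 0.53 ± 0.15 (adjusted p = 0.0164) and sulfiredoxin, Srxn1, by 0.44 ± 0.09 (adjusted p = 0.00272). The thioredoxin-glutathione reductase Txnrd3 fell by 0.75 ± 0.10 (adjusted p = 0.000154), aldose reductase, Akr1b3, by 0.63 ± 0.14 (adjusted p = 0.00509) and Hsd17b12, of fatty acid elongation, by 0.41 ± 0.12 (adjusted p = 0.0216). The Nqo1 call was lost without vehicle D or G, and that of Hsd17b12 without withdrawal D or F, without vehicle G or without all of letter F. Under the letter block 17 of 39 passed after withdrawal and 13 with compound 2, where 39.1% and 17.3% of all genes passed. In compound 2 the count was 4 without compound 2 A or C and 5 without vehicle A, and after withdrawal it was 6 without vehicle G. Leaving out single arrays gave 545 to 896 of all 21372 genes with compound 2 and 2404 to 7382 after withdrawal. With compound 9 limma passed 0, and 1 at an unadjusted p of 0.05.

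Genes of the NRF2 system, which include 5 of the NADPH-using genes, were called higher with compounds 2 and 6 in the fit without the block. Of 30 tested, 19 rose with compound 6 (24.8% of all genes were called) and 13 with compound 2 (5.3%), 0 fell, and the medians were 0.45 and 0.31. Lower calls appeared under other settings. The letter block gave 21 higher and 2 lower with compound 6 and 17 higher and 1 lower with compound 2, and with compound 2 Agilent's ratio gave 5 higher and 1 lower and the sample channel alone 9 higher and 1 lower. The glutathione transferase Gstm1 rose by 2.11 ± 0.15 with compound 2 (adjusted p = 1.26e-07) and 1.79 ± 0.13 with compound 6 (adjusted p = 3.58e-08). Gclc, the catalytic subunit of glutathione synthesis, rose by 1.03 ± 0.19 (adjusted p = 0.00386) and 2.94 ± 0.17 (adjusted p = 3.72e-09). After withdrawal 9 rose and 1 fell, where 20.6% of all genes were called (7.29% higher, 13.4% lower). Among those called were Gclc at 1.24 ± 0.17 (adjusted p = 0.000194), Osgin1, an oxidative stress response gene, at 1.09 ± 0.14 (adjusted p = 9.67e-05) and the peroxiredoxin Prdx1 at -0.44 ± 0.12 (adjusted p = 0.0177). The Prdx1 call was lost in 8 of 18 alternatives, among them the removal of withdrawal F or G or of vehicle D, E or G. The other scalings (Agilent, Cy3 and the matrix) gave 11, 13 and 12 higher and 0 lower, where 4151, 4375 and 4155 of all genes were called in either direction. Blocked by letter, 16 were higher and 2 lower after withdrawal, where 39.1% of all genes passed. In compound 2 the count was 7 without compound 2 A and 8 without compound 2 C or vehicle B, where single removals left 545 to 896 of all genes called. With compound 9 limma passed 0 of 30, and 2 at an unadjusted p of 0.05. Gstm1 still read 0.71 higher with compound 9 than with vehicle (0.69 on its other probe), and was higher in all 3 letters.

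**Figure D4:**
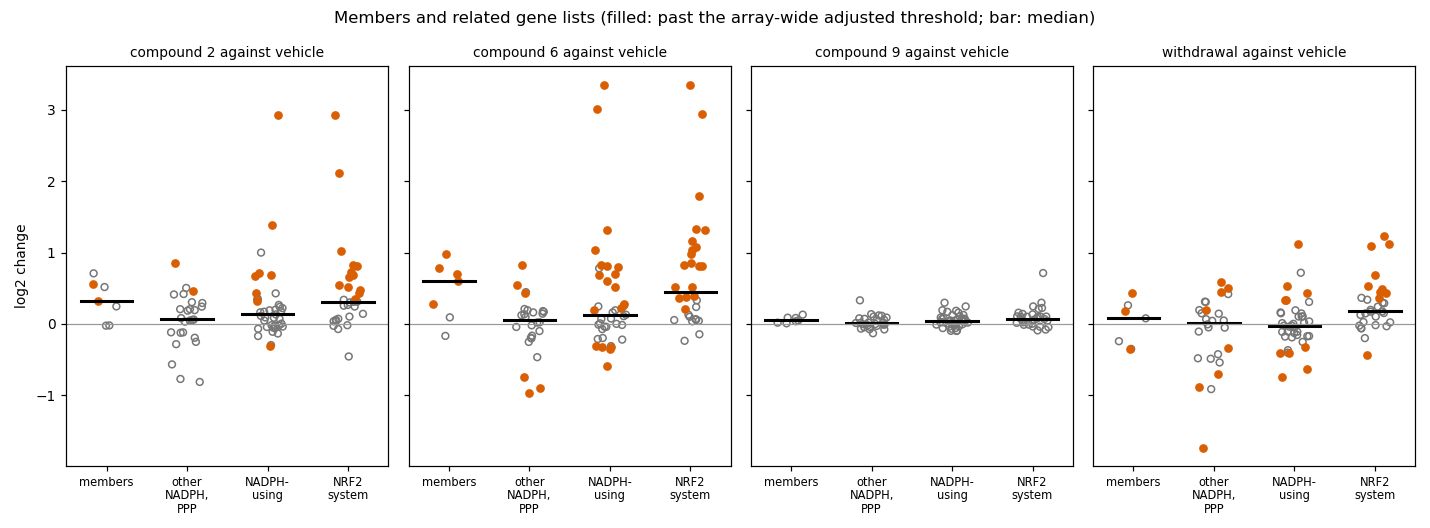
Log2 change against vehicle (vertical axis) of the 7 members and of every tested gene of the 3 related lists, by comparison. Filled points passed the array-wide adjusted threshold of 0.05, open points did not, and bars are medians; 19 of 30 NRF2 system genes are filled with compound 6, 13 with compound 2 and 0 with compound 9.

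Nfe2l2, the gene of NRF2 itself, read 2.16 to 2.37 with compound 2, 1.48 to 1.61 with vehicle and 1.41 to 1.49 with compound 9. It rose by 0.73 ± 0.13 with compound 2 (limma adjusted p = 0.00245) and by 0.52 ± 0.11 with compound 6 (adjusted p = 0.00215), and was 0.82 ± 0.13 lower with compound 9 than with compound 2 (adjusted p = 0.00104). After withdrawal its change of 0.30 ± 0.11 did not pass (adjusted p = 0.0636, and 0.00522 when blocked by letter), and with compound 9 it was -0.09 ± 0.13. Keap1, whose product holds NRF2 back, rose by 0.35 ± 0.09 with compound 2 (adjusted p = 0.025) and read 0.04 ± 0.08 with compound 6 (adjusted p = 0.769). The compound 2 call of Keap1 was lost in 8 of 16 alternatives, among them the removal of compound 2 A or B or of vehicle A, B or C. 

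Across the 21 arrays, after the mean of each set was taken off, the members correlated with each other at -0.47 to 0.88 over 21 pairs of genes (median 0.40). The arrays share their groups and letters, so these values are a description. G6pdx and Pgd were the closest pair (r = 0.88), followed by Me1 with Idh1 (0.78), while Pgls ran against Idh1 (-0.47). The genes most like Pgd were Gsr (0.97), the growth factor gene Fgf18 (0.96) and Arhgap1 (0.96), and among the 3 most like G6pdx was the glutathione transferase Gstm2 (0.94). Those most like Idh1 included the bicarbonate transporter Slc4a7 (0.94) and the sphingosine kinase Sphk1 (0.93), and the closest named gene to Me1 was Fscn3 (0.92). Taldo1 was closest to Morf4l2, Cbfb and Pelo (0.92, 0.91 and 0.90), Tkt to Cnbp (0.87) and Pgls to Impa2 and Acad9 (0.96 and 0.95).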

How the data were processed

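Gene expression was read from 21 Agilent 2-colour arrays, all with the organoid RNA in Cy3 and a common reference in Cy5. Agilent Feature Extraction 10.7.3.1 read the spots and probe positions are on mm9, per the file headers. The scanner files deposited by the authors give intensity and background per spot as scanned, and a log10 ratio of reference over sample made by that software. The authors' deposited matrix of processed values is in log2 sample over reference (correlation 0.995 to 0.999 with the scanner ratios, array medians 0.00385 to 0.106), and no source used here names the tool behind it.

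Of 62976 spots an array, the 3671 controls were left out, as were 157 non-uniform spots over all arrays, no spot was saturated, and 55681 probes remained. In R 4.3.3 with limma 3.58.1 the intensities were background-corrected by normexp (offset 50) and normalised within arrays by loess. A probe had to stand well above background in the Cy3 channel on 3 or more arrays (29631 did), and the brightest stood for its gene (21372 genes, 5768 with several probes). One limma model with a term for each group and for the set of letters was fitted to all arrays, with two-sided tests, Benjamini-Hochberg adjustment over all genes and a threshold of 0.05. The fit was tested on simulated data. matplotlib 3.10.9 under Python 3.11.15 drew the figures. The promoter windows are from RefSeq (GRCm38.p6).

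Letters pair the samples: deviations from group means of the 21 same-letter pairs of arrays correlated at 0.21 to 0.75 (median 0.53), those of other letters at a median of -0.18. A fit with letters as a block was hence run too. Letters occupy 5 slides, and the slide was tried as a random block. Other alternatives were Agilent's ratio, the Cy3 channel alone, the series matrix, other filters, the mean of a gene's probes, fewer arrays in the fit and leaving out arrays. The members, the 3 related lists and the markers were chosen with earlier results of these data known. Named besides the members are, per list and comparison with vehicle, up to 3 passing genes with the largest change in each direction, Nfe2l2 and Keap1, and up to 3 genes with the highest correlation to each member. Probe names without a gene symbol were left out of the last.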

Additional observations from a re-analysis of the deposited data

Results flagged for a closer look

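Among 28 groups of 4 or 7 arrays examined (7 genes), 3 held an array far from the others, where chance sets apart about 1 in 20 groups. The groups share arrays and all 3 cases carry letter F, so they are no independent draws to set against that rate. Vehicle F read 0.20 for G6pdx against 0.331 to 0.355 on vehicles D, E and G, and 4.92 for Idh1 against 4.26 to 4.27. Compound 6 F read 0.0628 for Pgls against 0.538 to 0.619 on the other compound 6 arrays. The changes in the report that rest on letter F are given there without it, or below.

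Differences between compounds were set apart where they passed the array-wide threshold of the limma model. Compound 9 lay below compound 2 for G6pdx (-0.436 ± 0.085) and for Pgd (-0.236 ± 0.067). Compound 6 lay above compound 2 for Pgd (0.654 ± 0.088), and above compound 9 for G6pdx (0.466 ± 0.112) and Pgd (0.891 ± 0.088). These use the arrays on which the genes were chosen, and compound 6 differs from the others in set, scan and slides, which only the vehicles of each set bridge. Those vehicles differed between the sets in proliferation and enteroendocrine markers.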

How the results depend on the processing

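With the letter as a replicate block the members past the threshold numbered 6 after withdrawal, 4 with compound 2, 4 for compound 9 against 2 and 4 for compound 6 against 9. The block also gave 16, 11 and 12 other NADPH and pentose phosphate genes (withdrawal, compounds 2 and 6), 17 and 13 NADPH-using genes (withdrawal, compound 2) and 18 NRF2 genes (withdrawal). Agilent's ratio gave 1 member after withdrawal and 1 for compound 9 against 2, and with compound 2 it gave 5 NADPH-using and 6 NRF2 genes. The deposited matrix gave 1 and 1 member in those comparisons and 8 NRF2 genes with compound 2. Cy3 alone gave 1 member for compound 9 against 2 and 1 other NADPH gene with compound 2. Other filters or averaged probes gave 1 other NADPH gene with compound 2, and no filter 1 member for compound 9 against 2. With only the groups compared in the fit the members numbered 0 after withdrawal, 1 with compound 2, 1 for compound 9 against 2 and 1 for compound 6 against 9, and the lists gave 6 NADPH-using genes after withdrawal and, with compound 2, 5 NADPH-using and 8 NRF2 genes. Without letter F 5 members passed after withdrawal and 7 other NADPH genes with compound 2. The number of all genes called moved with these settings too, from 2086 to 8354 after withdrawal and from 656 to 3702 with compound 2. It went from 553 to 3395 for compound 9 against 2 and from 498 to 4637 for compound 6 against 9.

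Leaving out single arrays gave 0 to 5 members after withdrawal, 1 to 2 for compound 9 against 2 and 1 to 3 for compound 6 against 9. The lists gave 6 to 14 other NADPH and 6 to 15 NADPH-using genes after withdrawal, and 0 to 3, 4 to 7 and 7 to 10 (NRF2) with compound 2. Of all genes 2404 to 7382 were called after withdrawal and 545 to 896 with compound 2. For compound 9 against 2 it was 501 to 824 and for compound 6 against 9 742 to 3613. Signs turned for Taldo1, compound 9 against compound 2 (Agilent 0.049), Tkt, compound 6 against compound 9 (Agilent -0.058, Cy3 -0.12, no letter F -0.097, single arrays -0.073 to 0.087), and Keap1 after withdrawal (Cy3 0.047). For compound 6 against 2 they turned for G6pdx (no letter F -0.051, single arrays -0.018 to 0.10), Taldo1 (-0.075, and -0.049 to 0.10) and Me1 (-0.20 to 0.37). Single arrays also turned Pgls, compound 9 against compound 2 (-0.037 to 0.11), Keap1 with compound 6 (-0.00055 to 0.11) and Nnt with compound 9 (-0.16 to 0.031). The cause was not tested. Of passing genes after withdrawal 35.3% were higher, against 47.1%, 46.5% and 46% with Agilent, Cy3 and the matrix; with compound 2 it was 62.6% against 48.9% and 49.7% (Agilent, Cy3).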

Other observations

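Nnt encodes the mitochondrial transhydrogenase that makes NADPH from NADH. It read 0.16 to 0.34 with compound 2 against 0.89 to 1.2 with vehicle and 0.78 to 1.14 with compound 9. In letters D to G vehicle read 1.91, 1.91, 0.78 and 1.87, compound 6 1.12, 1.05, -0.55 and 0.97 and withdrawal 1.09, 1.07, -0.19 and 0.85. Letter F was the lowest in all 3 groups, and within letters Nnt was lower in 4 of 4 with compound 6 (-1.34 to -0.79), 4 of 4 after withdrawal (-1.03 to -0.81) and 3 of 3 with compound 2 (-0.86 to -0.73). With the letter as a block the limma adjusted p was 3.73e-05 with compound 2, 4.8e-07 with compound 6 and 2.56e-06 after withdrawal, against 0.27, 0.0407 and 0.0605 without it. Its other kept probes gave -0.74 and -0.11 with compound 2, -0.39 and -0.16 with compound 6 and -0.33 and -0.17 after withdrawal, so the size differed between probes.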
